A study of Mus musculus with 11 samples.

Results

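NK and CD8-like lymphocytes were looked for in a single-cell RNA library of T cells that had been sorted for CD4 and CD44 at the cell surface. Cells were kept when at least 500 genes were detected and under 10% of their UMIs (molecules counted once each) were mitochondrial. A member had no UMI of Foxp3 (regulatory T cells), Cd79a (B cells) or Cst3 (myeloid and dendritic cells), and passed 1 of 2 arms. The CD8 arm required Cd8a and Cd8b1, the chains of the CD8 coreceptor, with at least 1 UMI each. The NK arm required at least 2 of the NK receptor genes Ncr1, Klrk1, Klrd1, Klre1 and Klrb1c. Of 13190 cells that passed the filters, 85 were members, or 0.644% (95% Clopper-Pearson interval 0.515 to 0.796). Members were thus chosen by their own UMI counts of these 10 genes, which describe the choice and support nothing.

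The study examined follicular helper and follicular regulatory T cells and the gene Sostdc1. The cells came from draining lymph nodes of C57BL/6 mice heterozygous for a Sostdc1-EGFP reporter, and the labels give neither age nor immunisation for this sample. There was 1 single-cell library, so the number of mice behind it is unknown, cells are not replicates, and no test between groups of cells was possible. Intervals below cover counting error only. They say nothing of the spread between mice.

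Natural killer cells are innate lymphocytes that kill stressed or infected cells through perforin and granzymes. Their activating receptors signal through small adaptor proteins, among them the products of Tyrobp and Fcer1g, and not through a T cell receptor. CD8 T cells carry a T cell receptor with the CD3 chains, recognise peptide on MHC class I, and can take up NK receptors such as Klrk1 and Klrd1 after activation. In lymph nodes, NK cells are a small population, and memory CD8 T cells that recirculate keep Ccr7, a chemokine receptor that directs entry into the node.

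The library held 15002 distinct barcodes and 106127466 UMIs, with a median of 5673 UMIs per barcode (range 500 to 78924). A total of 835 barcodes had under 500 genes and 977 exceeded the mitochondrial limit. Members had a median of 7220 UMIs (range 1281 to 18817), and 2 of the 85 were among the 10% of cells with the highest doublet scores. Other CD4 T cells, used for comparison, had Cd4 and Cd3e, passed the same exclusions and were not members. They numbered 2433, with a median of 5876 UMIs. B cells (Cd79a, Cd79b and Ms4a1 with at least 1 UMI each, no Cd3e and no Foxp3) served to show the level of free RNA. There were 700 of them, with a median of 4935 UMIs.

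The CD8 arm alone held 48 cells, the NK arm alone 33, and 4 cells passed both. Cd3e, which encodes a CD3 chain, was detected in 73 of the 85 members and absent from 12. By arm, Cd3e was found in 46 of the 48 CD8-arm cells, in 23 of the 33 NK-arm cells and in all 4 cells of both arms. Most cells of either arm therefore had RNA of a T cell receptor component. A Cd4 UMI was found in 24 members. Of these, 16 were in the NK arm and 8 in the CD8 arm, and the 4 cells of both arms had none. In B cells, which should lack Cd4, 48 of 700 cells had a Cd4 UMI (6.86%, interval 5.10 to 8.99). Their choice required no Cd3e UMI, so B cells that took up T cell RNA may be under-counted. The share in NK-arm cells was 48.5% (30.8 to 66.5) at a median of 5111 UMIs, well above that of these B cells. The share in CD8-arm cells was 16.7% (7.48 to 30.2) at a median of 7539 UMIs, with an interval that overlaps that of the B cells.

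All 37 cells with at least 2 NK receptors, including the 4 of both arms, are described next. Only 2 receptors were found in 23 of them, 3 in 6 cells, 4 in 6 cells and all 5 in 2 cells. Klrk1 with Klrd1 was the pair in 17 of the 23 cells with exactly 2 receptors. Klrk1 encodes the activating receptor NKG2D, and Klrd1 the invariant partner of the NKG2 receptors. In 9 of the 23 cells each of the 2 receptors rested on a single UMI. Cells with 2 receptors and cells with more differed in other genes. Among the 23, Cd3e was detected in 19, Cd4 in 15, and both Tyrobp and Fcer1g in none. Among the 14 with at least 3 receptors, Cd3e was detected in 8, Cd4 in 1, Tyrobp in 8 and Fcer1g in 10. Ncr1, which counts toward the number of receptors, was in 9 of these 14.

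Just outside the rule stood 372 cells with a single NK receptor, of which 226 had Klrd1, 106 Klrb1c, 33 Klrk1, 4 Klre1 and 3 Ncr1. In 288 of the 372 that receptor was a single UMI, and 247 had a Cd4 UMI. On the CD8 side, 11 cells had Cd8a without Cd8b1 and 276 had Cd8b1 without Cd8a. A further 163 cells met an arm and were left out for Cst3 alone. Cst3 was detected in 6855 of the 13190 cells (52.0%), in 3585 of them as 1 UMI, so this exclusion removed many cells with little Cst3.

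Ncr1, an activating receptor of NK cells and some innate lymphoid cells, divided the 37 cells into 9 with it and 28 without. This division was made with the values in view and carries no test. It ran along the adaptor genes, which the rule did not use. Tyrobp was detected in 8 of the 9 cells with Ncr1 (88.9%, interval 51.8 to 99.7) and in 0 of the 28 without (upper limit of the interval 12.3%). Fcer1g was detected in 9 of 9 and in 1 of 28. Klrb1b, an inhibitory receptor of NK cells, was detected in 8 of 9 and in 0 of 28. In B cells Tyrobp reached 12.7% of cells and Fcer1g 4.29%. With each cell thinned to 2000 UMIs (1 cell with Ncr1 and 2 without were shallower and left out), Tyrobp was found in 87.5% of the cells with Ncr1 and in 0% of those without.

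The T cell genes ran the other way. Cd3d was detected in 3 of the 9 cells with Ncr1 and in 27 of the 28 without, and Trac, the constant region of the T cell receptor alpha chain, in 3 and 27. A Cd4 UMI was found in 0 of 9 and in 16 of 28 (57.1%, 37.2 to 75.5). Trbc2, a beta chain constant region, was less divided, with UMIs in 7 of the 9 and in all 28. The adaptor genes listed for NK cells were thus present in most of the 9 cells with Ncr1. Yet 4 of the 9 had Il7r and none of Gzma, Gzmb and Prf1, and some had CD3 and Trac UMIs, as given below. The 9 are therefore called here cells with Ncr1. The other 28 carried NK receptors on cells with T cell receptor genes, and 16 of them with Cd4, and are called here by that description.

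**Figure D1:**
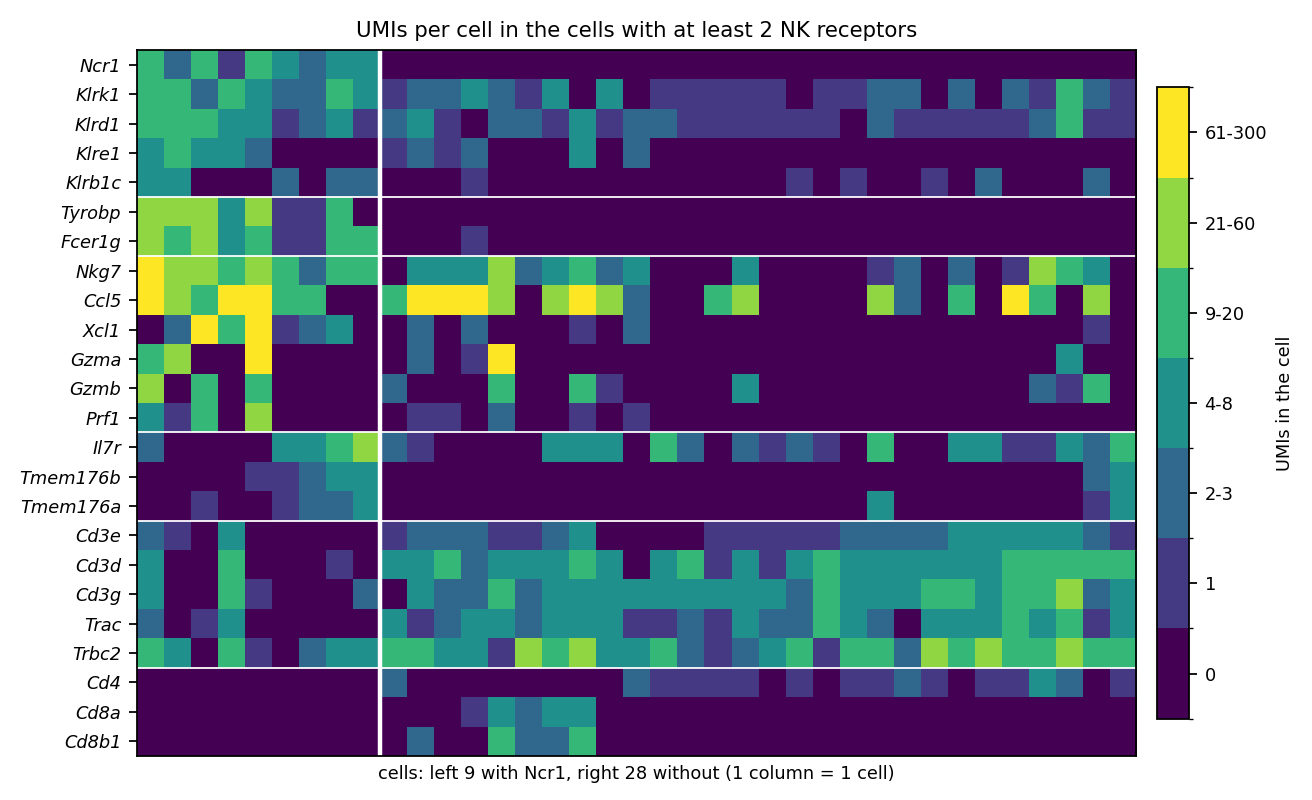
UMIs per cell (colour) for 24 genes in each of the 37 cells with at least 2 NK receptors, 9 with Ncr1 on the left and 28 without on the right. The rows of Tyrobp and Fcer1g are filled on the left and nearly empty on the right, while Cd3d, Cd3g and Trac are filled on the right. The 5 receptors in the top rows chose the cells.

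The 9 cells with Ncr1 had between 1759 and 12928 UMIs in all (median 7692). Their Ncr1 counts ranged from 1 to 15 UMIs with a median of 5, and their Tyrobp counts from 0 to 53 with a median of 17. Nkg7, a granule membrane protein of cytotoxic cells, was detected in all 9, with 2 to 66 UMIs (median 15). Ctsw, a cathepsin of cytotoxic lymphocytes, Id2, a transcription factor needed for innate lymphocytes, Il2rb, a receptor chain for IL-2 and IL-15, and Cd7 were each detected in 9 of 9. Xcl1, a chemokine that attracts dendritic cells, was detected in 7 of 9, at 2640 CPM (the UMIs of a gene in a group, scaled to a fixed total). Of its 164 UMIs, 77 and 63 were in 2 cells, and the other 7 cells together stood at 513 CPM.

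Within these 9 cells the killing genes and Il7r were split. Il7r is the receptor for IL-7, which sustains innate lymphoid and resting T cells. Gzma, Gzmb or Prf1 was detected without Il7r in 3 cells, Il7r without any of them in 4, both in 1 and neither in 1. The cell with the most Gzma had 203 UMIs of it, 46 of Prf1 and 16 of Gzmb, and no Il7r. It also had 77 UMIs of Xcl1 and 76 of the chemokine Ccl4. The 4 cells with Il7r and none of these granule genes had 26, 13, 6 and 5 UMIs of Il7r, and all 4 had UMIs of both Tmem176a and Tmem176b, genes found in innate lymphoid cells. Of the 3 cells with any of these granule genes and no Il7r, 2 also had a UMI of Tmem176a or Tmem176b. In the 4 cells with Il7r and none of Gzma, Gzmb and Prf1, Tmem176b counts were 8, 5, 2 and 1 UMIs, in the same order. Their Nkg7 counts were 11, 15, 2 and 9 UMIs. These 4 cells had 5665, 7972, 1759 and 2111 UMIs in all, in that order. The 3 cells with granule genes and no Il7r had 7600, 7692 and 8530. The last 2 of the 4 were thus the shallowest of the 9, and the part of depth in this split was not tested. One cell with Ncr1 as a single UMI had 13 UMIs of Cd3g, 11 of Cd3d, 7 of Trac and 4 of Cd3e. Another, with 9 UMIs of Ncr1 and 53 of Tyrobp, had 4 each of Cd3d and Cd3g and 2 each of Cd3e and Trac. These groupings were read from the values and are a description of 9 cells.

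The 28 cells without Ncr1 were more even in their T cell genes than in their killing genes. Cd3g, like Cd3d and Trac, was detected in 27 cells, and Cd3e in 24, with a median of 2 UMIs and a highest value of 8. Nkg7 and Ccl5 were each detected in 17, Il7r in 19, Rora in 13 and Gzmb in 8. Ccl5, a chemokine of memory and effector T cells and NK cells, ranged from 0 to 193 UMIs with a median of 13.5. Cd8a was detected in 5 of the 28. A single cell without Cd8a, with 17829 UMIs in all, had 253 UMIs of Ifitm1, 52 of Ifitm3 and 44 of Ifitm2, antiviral membrane proteins, together with 18 of Cd3d and 3 of Cd4.

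The rule's Cst3 condition bears on how many cells with Ncr1 it found. In all, 35 filtered cells had an Ncr1 UMI. Besides the 9 members, 16 had Ncr1 and at least 2 of the receptors and were left out for Cst3 alone, 14 of them with 1 to 3 Cst3 UMIs. Tyrobp and Fcer1g were each detected in 16 of those 16, Gzma in 13 and Il7r in 4. Gzma, Gzmb or Prf1 was found without Il7r in 11 of the 16 and Il7r without any of them in 2. Both were found in 2 and neither in 1, so the more even split of the 9 members was that of the cells the rule kept. Summed over the 16 cells, Gzma reached 18441 CPM, against 4089 CPM in the 9 members with Ncr1. Without the cell of 203 UMIs the members with Ncr1 stood at 935 CPM, and the 16 left out for Cst3 stood at 15279 CPM without their own top cell. The median of the 16 was 10306 UMIs per cell. The cells with Ncr1 that the rule kept were therefore the minority of those that met the NK arm.

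The 48 CD8-arm cells had a median of 7539 UMIs. Cd8a ranged from 1 to 11 UMIs with a median of 3, and Cd8b1 from 2 to 28 with a median of 7, as the rule required at least 1 of each. Genes outside the rule described T cells. Cd3d was detected in 47 of the 48 cells, Trac in 45 and Trbc2 in 46, and Runx3, the transcription factor that represses Cd4 in CD8 T cells, in 29. Zbtb7b, which directs CD4 T cells, was detected in 1 cell and Cd40lg, the helper ligand of CD4 T cells, in 0 (which allows a share of up to 6.25%). In the 2433 other CD4 T cells these shares were 23.1% and 26.0%, at a lower median depth.

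Resting and recirculation genes were common in the CD8-arm cells. Lef1 was detected in 40 of the 48, Tcf7 and Il7r in 37 each, Ly6c2 in 34, Ccr7 in 32 and Dapl1 and Igfbp4 in 29 each. Nkg7 was detected in 44 of the 48, with a median of 5 UMIs and a highest value of 29. Granzymes were rarer. Any of Gzma, Gzmb and Gzmk was detected in 9 cells (18.8%, 8.95 to 32.6), and Prf1, the pore-forming perforin, in 18, with at most 3 UMIs in a cell. Ccl5 was detected in 16 cells and ran from 0 to 110 UMIs, with at least 10 UMIs in 7 cells. Klrk1, Klre1, Klrb1c and Ncr1 were at 0 in all 48. Klrd1 was detected in 32, and a cell with Klrd1 and another receptor would have been placed in both arms.

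One CD8-arm cell stood apart. It had no UMI of Cd3e, Cd3d, Cd3g or Trac, and had 20 UMIs of Siglech, a lectin of plasmacytoid dendritic cells, which were all the Siglech UMIs of the arm. It also had 123 UMIs of Cd74, 60 of Ly6d, 42 of Bst2, 27 of Irf8, 25 of Tyrobp and 13 of Cox6a2, and 4 of Cd8a and 3 of Cd8b1. Plasmacytoid dendritic cells can carry CD8 alpha. It held 231 UMIs of the listed B cell markers and 32 of the myeloid and dendritic markers, against at most 12 and 6 in any member with Cd3e. Results that rest on it are given as such below.

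**Figure D2:**
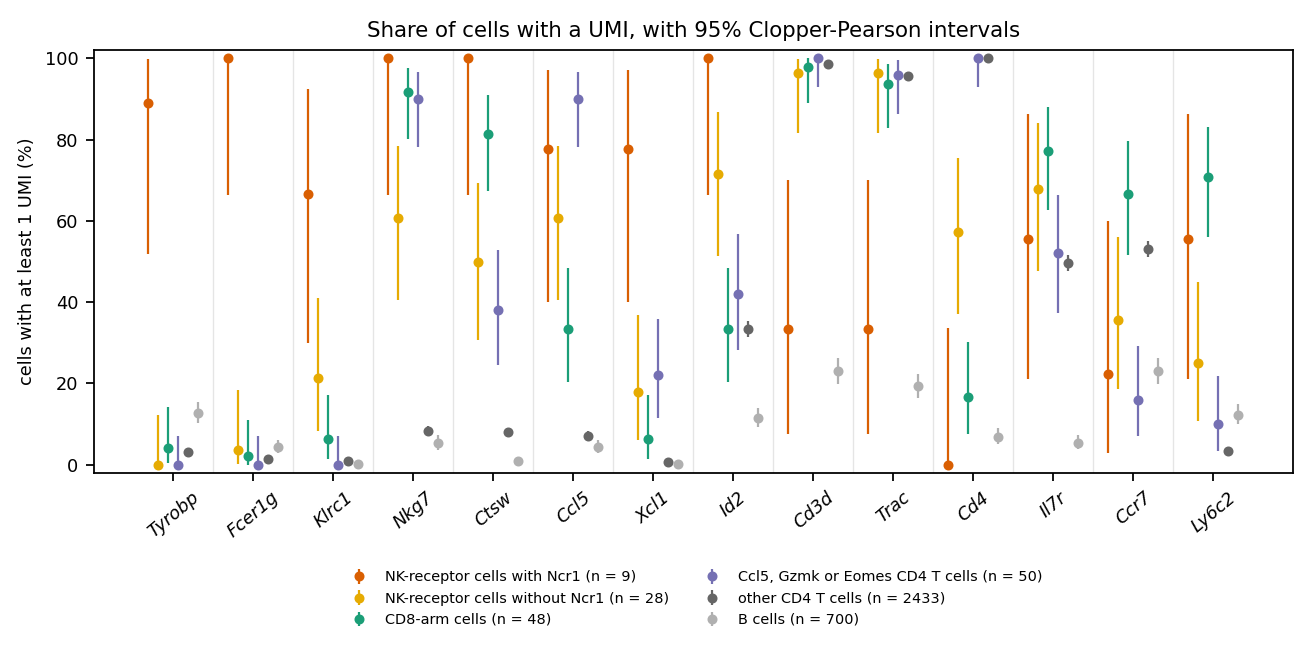
Share of cells with at least 1 UMI of 14 genes (vertical axis, percent) in 6 groups of cells from the library, with 95% Clopper-Pearson intervals. Tyrobp and Fcer1g are high only in the 9 cells with Ncr1, Nkg7 is found in most CD8-arm cells and in few other CD4 T cells, and Cd4 and Cd3e chose the last 2 groups of T cells. B cells, which were chosen without Cd3e, show the level reached by free RNA in them for genes they should lack, with other depths than the T cells.

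Against the 2433 other CD4 T cells, summed UMIs of the 85 members were compared on the log2(CPM + 1) scale over 4575 genes with at least 25 CPM in either group. A gene counted as higher or lower at a difference of at least 2-fold. Of the 4575 genes, 125 were higher, or 2.73%, and 160 lower, or 3.5%, with a median log2 ratio of -0.12. Xcl1, Ly6c2 and Ccl4 were among the highest ratios. Ly6c2, a surface protein of memory CD8 T cells, had 740 CPM in the members and 9.63 CPM in other CD4 T cells. It was 76.8-fold higher (interval 63.8 to 92.9) and was detected in 46 of 85 cells, with 75 of its UMIs in 1 CD8-arm cell. Xcl1 was 101-fold higher (71.7 to 144) and was detected in 15 of 85 cells, and 43.8% of its UMIs came from 1 cell. Ccl5 had 3176 against 134 CPM (23.7-fold, 22.3 to 25.2) and Nkg7 1069 against 46.8 CPM (22.8-fold, 20.5 to 25.4). Nkg7 was also the most widespread of them, in 70 of 85 cells.

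Plac8 was 23.4-fold higher (19.6 to 28.0) and Klrc1, an NKG2 receptor, 36.1-fold (22.5 to 58.4). Fcer1g was 71.2-fold higher (49.3 to 105) and Tyrobp 49.1-fold (37.9 to 64.0), in 11 and 10 of the 85 cells. Klrb1b had 27 UMIs in the members and none in the other CD4 T cells, at least 221-fold higher against a floor of 3 UMIs in that group. A few cells carried other ratios. Gzma was 37.2-fold higher with 58.8% of its UMIs in 1 cell, Ccl4 120-fold with 86.4% in 1 cell, and the 47 UMIs of Klra7 were in 3 cells.

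A gene that reached 25 CPM in 1 group alone had little room not to differ, so the lists are counted apart by where their genes reached it. The shares over all genes include such genes. None was computed for genes at 25 CPM in both groups, here or in the later comparisons. The list counts therefore have no matching background and are descriptions. Of 16 listed killing genes 6 reached 25 CPM in both groups, of which 2 were higher (Nkg7 and Gzmb) and none lower. A further 7 reached it in the members alone (Gzma, Gzmc, Ctsw, Prf1, Serpinb6b, Serpinb9 and Gzmk) and were higher. Ctsw was 15.9-fold higher (13.0 to 19.4), Prf1 7.27-fold (5.80 to 9.06) and Gzmb 5.32-fold (4.38 to 6.42). One cell held 43.4% of the Prf1 UMIs and another 35.1% of those of Gzmb. Of 17 listed NK-complex receptors outside the rule, 5 reached 25 CPM, each in the members alone. Of 18 adaptors and surface markers, 4 reached it in the members alone and 2 in both groups, and Il2rb was the higher one of those 2. Of 12 listed chemokines and cytokines, Ccl5 alone reached it in both groups, and Xcl1 and Ccl4 in the members alone. Of 8 type 1 and innate transcription factors at 25 CPM in both groups, Id2 was higher and Ikzf2 lower. Irf8, Eomes and Runx2 reached it in the members alone and Tox in the other CD4 T cells alone. In the members 25 CPM is 15.9 UMIs. The cell with Siglech held 27 UMIs of Irf8, and the cell with the most Ccl4 held 24. The log2 ratio of Id2 was 1.38, and 0.93 with at least 3 receptors required. Eomes, a regulator of NK and memory CD8 T cells, was 7.40-fold higher (5.09 to 10.6) and was detected in 20 cells.

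Among homing genes, 2 of the 11 at 25 CPM in both groups were higher and none lower, and 3 reached it in the members alone. Cxcr6 was 4.38-fold higher (3.53 to 5.39), and Ccr9 36.8-fold with 54.2% of its UMIs in the cell with Siglech. Of 13 genes of the T cell receptor and CD3 complex outside the rule, none was higher and 1 was lower. That gene, the costimulatory receptor Cd28, was 2.10-fold lower (1.68 to 2.65), and not past 2-fold once ratios were centred on their median (log2 ratio -0.95) or averaged over cells (-0.80). None of 14 MHC class I genes and none of 16 interferon response genes differed by 2-fold in either direction.

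Several genes of helper and follicular T cells were among the lower ones. Of 12 listed Tfh genes 4 reached 25 CPM in both groups, of which 3 were lower, and 4 in the other CD4 T cells alone, all lower. Sostdc1 reached it in the members alone and lay inside 2-fold. Maf, a Tfh transcription factor, had 66.2 CPM against 266 CPM, 4.02-fold lower (2.97 to 5.58). The costimulatory receptor Icos was 3.17-fold lower (2.37 to 4.36) and the inhibitory receptor Pdcd1 4.13-fold (2.30 to 8.30). Tox2, another Tfh factor, had 2 UMIs in the members and 39.9 CPM in other CD4 T cells (12.7-fold lower, 3.49 to 105). Of 5 Treg genes at 25 CPM in both groups 3 were lower and none higher, and Tnfrsf4, the costimulatory receptor OX40, was 7.64-fold lower (4.76 to 13.1). Izumo1r, a folate receptor of CD4 T cells, was 5.93-fold lower (4.25 to 8.52). Zbtb7b was 6.73-fold lower (2.62 to 24.8) and Cd40lg 4.40-fold (2.22 to 10.2), which goes with the choice of Cd4 cells for comparison.

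Of 5 cell cycle genes at 25 CPM in both groups none was past 2-fold, and of 6 that reached it in the other CD4 T cells alone 5 were lower. Pclaf, a replication factor, had 2 UMIs in 85 cells and 48.1 CPM in other CD4 T cells (15.3-fold lower, 4.21 to 126). Cks1b, which is outside that list, was 7.98-fold lower (2.19 to 66.1). When cells with up to 3 Cst3 UMIs were admitted, the log2 ratios of Pclaf and Cks1b became -0.69 and -0.40, so neither was 2-fold lower. The log2 ratio of the histone gene Hist1h2ae was -3.31 in the sums and -0.98 in the mean over cells. The remaining genes among the 12 lowest were Marcksl1, Pdlim4, Tubb2a, Ext1 and Bcl2a1d, between 6.39-fold and 10.6-fold lower.

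Of 7 measured B cell markers 5 were higher among the members (H2-Ab1, H2-Aa, Cd74, Cd79b and H2-Eb1), a count that rests on the cell with Siglech. Without it 4 were measured, 1 higher and 1 lower. The summed level of all 13 listed was 762 CPM in the members, 403 CPM without that cell and 545 CPM in other CD4 T cells, so the direction turned on 1 cell. Cd79a was 0 by the rule. Over all genes without the cell with Siglech, 118 genes were higher and 175 lower.

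**Figure D3:**
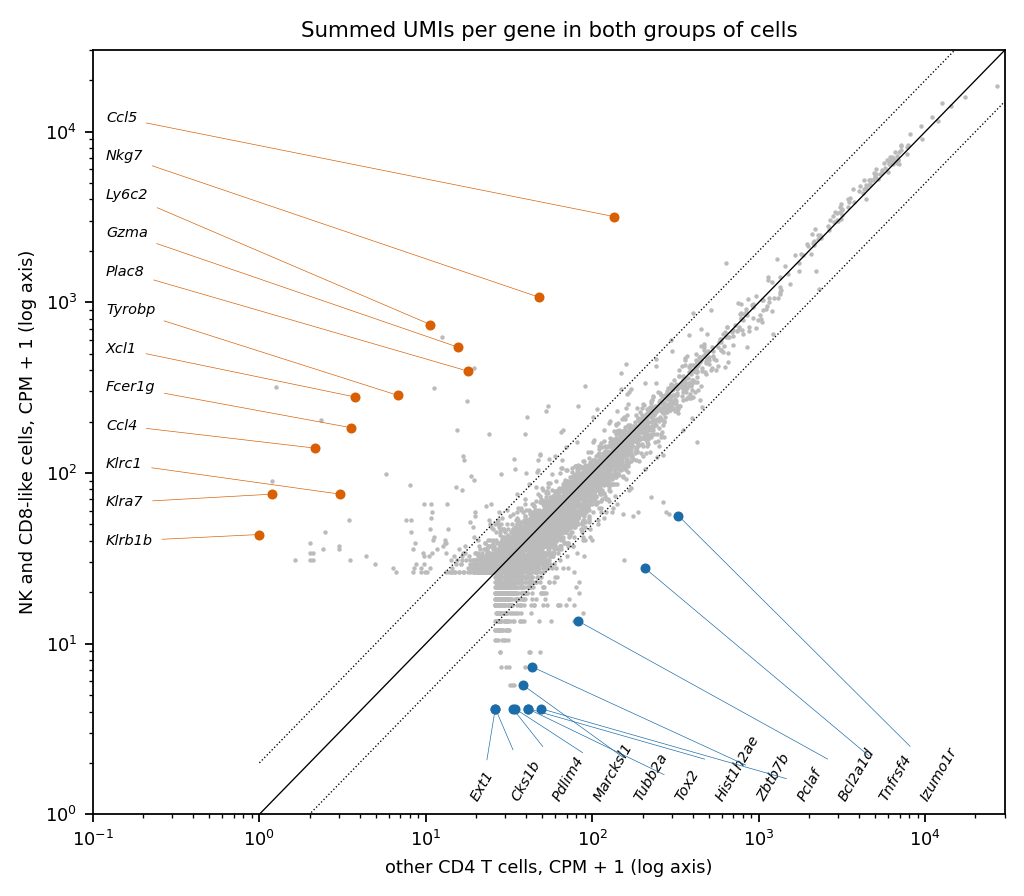
Summed level of each of the 4575 genes, as CPM + 1 on log axes, in the 2433 other CD4 T cells (horizontal) and in the 85 NK and CD8-like cells (vertical). The solid line marks equal levels and the dotted lines 2-fold, orange points are the 12 highest and blue points the 12 lowest ratios among genes outside the rule, led by Xcl1, Ly6c2 and Ccl4 and by Pclaf, Hist1h2ae and Tox2.

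The arms were then compared with each other, 33 NK-arm cells with 48 CD8-arm cells, over 4639 genes. In the NK arm 982 genes were higher (21.2%) and 212 lower (4.57%), with a median log2 ratio of 0.43. Ribosomal protein genes took 28.3% of all UMIs in the NK arm and 44.5% in the CD8 arm, and their part in this imbalance was not tested. With ratios centred on their median, 552 genes were higher and 476 lower, so higher genes made up 53.7% of those past 2-fold where they had been 82.2%. Each gene ratio named below kept its direction under both scalings.

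Of 17 listed NK-complex receptors outside the rule, 9 reached 25 CPM, each in the NK arm alone. Of 18 adaptors and surface markers, 4 reached it in both arms, of which 3 were higher in the NK arm, and 4 in the NK arm alone. Fcer1g was 31.7-fold higher (14.9 to 80.7), and its 7 CD8-arm UMIs were all in the cell with Siglech. Tyrobp was 12.1-fold higher (7.92 to 19.0), with 25 of its 26 CD8-arm UMIs in that same cell. Il2rb was 5.50-fold higher (3.79 to 8.11) and was detected in 25 of 33 against 18 of 48 cells. Of 7 killing genes at 25 CPM in both arms 3 were higher and none lower, and 7 reached it in the NK arm alone. The share of all genes at 25 CPM in both arms that were higher was not computed, so these counts have none beside them. Ccl5 was the only listed chemokine that reached it in both arms. Ccl5 was 6.47-fold higher (5.81 to 7.21) and was detected in 21 of 33 cells.

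Of 7 transcription factors of type 1 and innate lymphocytes at 25 CPM in both arms 2 were higher and 1 lower, and 7 reached it in the NK arm alone. Id2 had 974 CPM in the NK arm and 101 CPM in the CD8 arm, 9.68-fold higher (6.89 to 13.9), in 27 of 33 against 16 of 48 cells. Rora, a factor of innate lymphoid and some memory T cells, was 11.8-fold higher (4.52 to 39.1) and Tbx21, which encodes T-bet, 11.2-fold (2.44 to 104). Of 10 innate lymphoid genes, Il7r reached 25 CPM in both arms and was inside 2-fold, and 4 reached it in the NK arm alone. Tmem176a and Tmem176b had 23 UMIs each in the NK arm and none in the CD8 arm, at least 15.6-fold higher against the floor of 3 UMIs. Cells with Cd3e and without Ncr1 held 6, 4 and 1 of the Tmem176a UMIs and 4 and 2 of those of Tmem176b. The only Rora counts in cells with Ncr1 were 4 and 1 UMIs, and most NK-arm cells with Rora lacked Ncr1. Ifitm1 led all ratios with 262 UMIs against 0, yet 96.6% of them came from a single cell.

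The other genes among the 12 highest were each found in up to 10 of the 33 cells. They were Ifitm3, Klra7, Klrb1b, Lgals3, Car2, Gzmc, Anxa1, Ifitm2 and Fgl2. The cell that held most Ifitm1 also held 52 of the 57 Ifitm3 UMIs, 44 of the 61 of Ifitm2 and 29 of the 72 of Lgals3. Anxa1 was detected in 9 NK-arm cells and Fgl2 in 10, and both were at 0 in the CD8 arm. Of 3 Tfh genes at 25 CPM in both arms 2 were higher, and 3 of 3 Treg genes, in a group in which 16 of 33 cells had a Cd4 UMI. Cd4 itself was 4.07-fold higher (1.96 to 8.93), and with at least 3 receptors required its log2 ratio was -0.29.

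Of 12 listed central memory and resting genes, all at 25 CPM in both arms, 5 were lower in the NK arm and none higher. Dapl1 had 54.9 CPM in the NK arm and 422 CPM in the CD8 arm, 7.68-fold lower (4.19 to 15.7). Igfbp4 was 3.54-fold lower (2.30 to 5.68), Ccr7 2.95-fold (1.66 to 5.62) and Lef1 2.48-fold (1.51 to 4.30). Ly6c2 was 2.37-fold lower (1.83 to 3.11), a difference that dropped below 2-fold without the cell with Siglech (log2 ratio -0.92), under 5% mitochondrial UMIs (-0.78), with at least 3 receptors (-0.37) and without member cells that had a Cd4 UMI (-0.24). Fcgrt, the neonatal Fc receptor, was at 0 in the NK arm and was found in 8 CD8-arm cells. Siglech, Klk1, Cox6a2, H2-Eb1, Rnase6 and Ccr9, also among the 12 lowest ratios, had from 54.2% to 100% of their CD8-arm UMIs in the cell with Siglech, and the rest were Mrpl22, Smg9, Cep57l1, Ppic and Mettl22. Genes of the T cell receptor and CD3 complex were higher in 2 of 14 and lower in none, at a median of 0.35, close to the median of all genes.

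NK-arm cells without Cd3e, 10 cells and 49336 UMIs, were set against the 23 with Cd3e. At this depth 25 CPM is 1.23 UMIs in the smaller group, so most single-gene ratios rest on a few UMIs. Of 5443 genes, 1066 were higher without Cd3e (19.6%) and 1147 lower (21.1%). Among 1366 genes with at least 20 UMIs in both groups together, a limit added after the data were seen, 90 were higher and 120 lower.

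Of 13 T cell receptor and CD3 genes other than Cd3e, 7 were lower without Cd3e and none higher (median -1.13). Cd3e belongs to the same complex, so lower values of this list go with the choice of cells and are no separate result. This list is not counted apart by where its genes reached 25 CPM. Trac was 3.53-fold lower (1.85 to 7.57) and Cd3d 2.68-fold (1.66 to 4.58). Cells without Cd3e were not without these genes, as Cd3d was detected in 4 of the 10, Trac in 5 and Trbc2 in 8. Fcer1g was 4.04-fold higher (2.72 to 6.03), in 6 of 10 against 4 of 23 cells. Those 6 were also the cells with Ncr1 in that group, and Ncr1 was detected in 3 of the 23 with Cd3e. The remaining cells without Cd3e all had Trac UMIs and no Fcer1g. The comparison by Cd3e therefore overlapped with the division by Ncr1, and the 2 were not told apart. Tyrobp was 2.42-fold higher (1.73 to 3.36) in the cells without Cd3e, in 5 of 10 against 3 of 23. Without the member cells that had a Cd4 UMI the log2 ratio of Tyrobp was 0.69, and with at least 3 receptors required 0.44, both under 2-fold.

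Of 10 innate lymphoid genes, 3 reached 25 CPM in both groups and were higher without Cd3e (Tmem176a, Tmem176b and Il7r), and 3 reached it in the cells without Cd3e alone. Tmem176b was 8.67-fold higher (3.26 to 26.9), with 17 UMIs in 5 cells against 6 in 2, and Il7r 3.56-fold (2.49 to 5.10). Those 5 cells all had Ncr1. Under the limit of 5% mitochondrial UMIs the log2 ratio of Il7r was 0.94. Some genes were found on 1 side only. Gzmc had 19 UMIs, in 2 cells, without Cd3e and 0 with it. Klra7 had 0 without Cd3e and 47, in 3 cells, with it. The other highest ratios were of Upp1, Lilr4b, Prnp, Klra3, Ski, Pde5a, Otud6b, Klrg1, Ccl4, Zfp217 and Utf1. The other lowest were of Neurl3, Fundc2, Fam189b, Acp5, Cd69, Myo1g, Sostdc1, Immt, Mak16, Nckap1l and Tnfrsf4.

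CD8-arm cells were last compared with 50 CD4 T cells that had at least 2 of Ccl5, Gzmk and Eomes. Those 3 genes, and Cd4, Cd3e and the rule's genes, chose the groups and are no result. The 50 cells had a median of 4114 UMIs against 7539. Of 4846 genes, 201 were higher in the CD8 arm (4.15%) and 1012 lower (20.9%), with a median log2 ratio of -0.40. Centred on the median, 405 were higher and 494 lower, or 45.1% higher where it had been 16.6%. Ribosomal genes took 33.2% of UMIs in the CD4 cells.

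The CD8-arm cells were higher in 5 of 12 measured central memory and resting genes, with none lower and a median of 0.60. Plac8 had 552 CPM in the CD8 arm and 11.6 CPM in the CD4 cells, 47.7-fold higher (16.1 to 233), in 31 of 48 against 3 of 50 cells. Ly6c2 was 14.6-fold higher (8.70 to 26.3), Dapl1 7.82-fold (4.54 to 14.6), Ccr7 3.82-fold (2.15 to 7.29), Igfbp4 2.90-fold (2.03 to 4.23) and the chromatin organiser Satb1 2.50-fold (1.62 to 3.97). For Ly6c2, 1 CD8-arm cell held 75 UMIs, where the median of the arm was 2.5. Its ratio between the arms, given above, depended on the cell with Siglech. In shares of cells, Ccr7 was found in 66.7% of the CD8-arm cells (51.6 to 79.6) and in 16.0% of the CD4 cells (7.17 to 29.1). Thinned to 2000 UMIs per cell these were 29.2% and 2.04%, in the same order.

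Of 10 homing genes at 25 CPM in both groups 2 were higher and 4 lower. A further 3 reached it in the CD8 arm alone and 1 in the CD4 cells alone. Higher in the CD8 arm were Ccr9, the integrin subunits Itgae and Itgb7, Ccr7 and Cxcr6. For Ccr9, 13 UMIs were in the cell with Siglech. Itgae, the alpha E integrin, had 15 UMIs in 7 cells and none in the CD4 cells, and Itgb7, its beta partner, was 2.36-fold higher (1.49 to 3.88). Among the lower were the integrin Itga4, 4.79-fold (3.31 to 7.07), Cxcr3, 2.86-fold (1.66 to 5.05), Itgal and Ccr2. With cells of up to 3 Cst3 UMIs admitted, the log2 ratios of Cxcr3, Cxcr6 and Itgb7 were -0.74, 0.20 and 0.59, all under 2-fold.

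Of 7 killing genes at 25 CPM in both groups 1 was higher and none lower, and of 5 that reached it in the CD4 cells alone 2 were lower. Ctsw was 2.23-fold higher (1.43 to 3.59) and was not past 2-fold in the mean over cells (log2 ratio 0.76), under 5% mitochondrial UMIs (0.99) or without the highest doublet scores (0.91). Fasl, the death ligand, had 1 UMI in the CD8 arm and 15 in the CD4 cells. Gzmb had 8 and 11 UMIs, a ratio whose interval includes equality and whose sign turned with at least 3 receptors required (log2 ratio 0.74). That setting moved the 4 cells of both arms, which held 23 UMIs of Gzmb, into the CD8 arm. Xcl1 was 12.2-fold lower (4.30 to 47.5) and Ifng 8.64-fold (1.89 to 80.2) in the CD8 arm. Cd7 was 11.1-fold higher (2.86 to 95.6).

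Of 3 Tfh genes at 25 CPM in both groups 2 were lower in the CD8 arm, and 4 reached it in the CD4 cells alone, all lower. Maf had 4 UMIs in the CD8 arm and 91 in the CD4 cells (35.7-fold lower, 13.5 to 134), and Rgs1, a regulator of chemokine receptor signalling, 3 against 80 (41.9-fold lower, 13.8 to 207). Pdcd1 was at 1 UMI against 26, and Cd28 5.33-fold lower (3.46 to 8.44). Tyrobp, Siglech, Cox6a2 and Ly6d were among the 12 highest ratios, and the cell with Siglech carried nearly all of their UMIs. Without it 215 genes were higher and 1016 lower. The other 7 were Ccr9, Fcgrt, Lcn4, Itgae, Adgrg5, Anapc15 and Tmem229b, each with 11 to 24 UMIs against 0. Of the Ccr9 UMIs, 13 were in the cell with Siglech. Among the lowest, Esm1 had 0 UMIs against 17 and Galnt9 0 against 10. The rest (Tubb2b, Alcam, Cacna1d, Hax1, Miga1, Nrp1, Ptpn9 and Rnf43) had 0 UMIs in the CD8 arm and 8 to 10 in the CD4 cells.

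**Figure D4:**
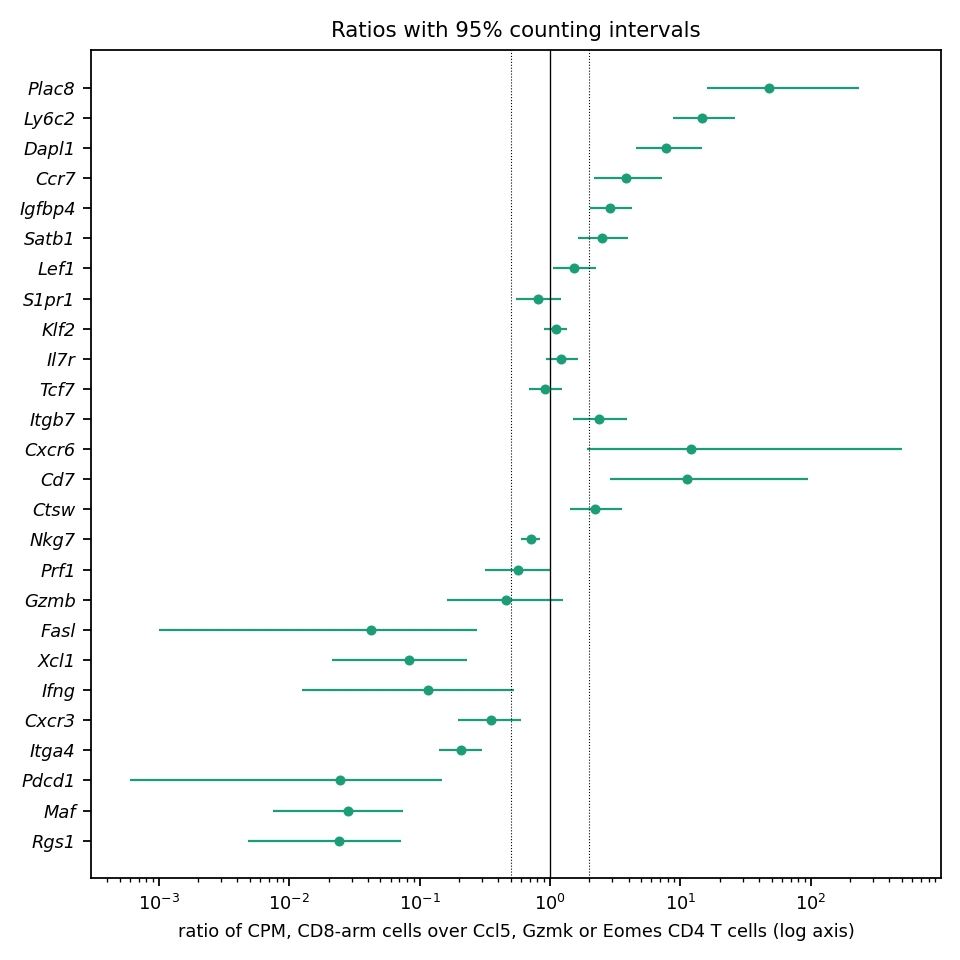
Ratio of CPM in the 48 CD8-arm cells over that in the 50 CD4 T cells with at least 2 of Ccl5, Gzmk and Eomes (horizontal, log axis) for 26 genes chosen after their values were seen, with 95% exact counting intervals. The solid line is equality and the dotted lines are 2-fold, with Plac8, Ly6c2 and Dapl1 far to the right, Nkg7 near the centre, and Maf and Rgs1 far to the left.

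Zbtb16, the transcription factor of NKT cells, was at 0 in all 85 members (which allows a share of up to 3.53% of cells with a UMI). Sostdc1, the gene of the study's reporter, had 16 UMIs in members, all in 2 NK-arm cells with Cd3e and without Ncr1, and 15 of the 16 were in 1 cell. That cell, with 3254 UMIs, had single UMIs of Klrk1, Klrb1c and Cd4, with 6 of Cd3d and 5 of Maf. Sostdc1 was at 0 in the 48 CD8-arm cells and in the 9 cells with Ncr1. It was detected in 3.49% of other CD4 T cells and in 1.71% of B cells.

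The 2 bulk RNA libraries of follicular regulatory T cells, sorted from C57BL/6 WT mice and from Sostdc1 knockout mice, gave the same receptor genes at low levels. Against its label, the KO library had 458 counts of Sostdc1, where the library labelled WT had 4, so both are named only by label. With 1 library each there is no replicate check. Klrk1 had 198 counts against 16, 8.05-fold higher in the library labelled KO (4.84 to 14.4), and Klrd1 108 against 21, 3.35-fold (2.08 to 5.63). These 2 of the 7 NK and CD8 rule genes passed 2-fold on the log2(CPM + 1) scale. Among 10194 genes with at least 5 CPM in either library 2.6% were higher and 9.12% lower, but of the 7 only Klrk1 and Cd8b1 reached 5 CPM, so these shares are no background for the others. Ncr1 had 20 counts against 3, Tyrobp 47 against 8 and Cd8a 10 against 14. Klrk1 was at 7.13 and 0.885 CPM and Cd4 at 531 and 409 CPM. In these bulk samples more cells of a type and more RNA per cell cannot be told apart.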

How the data were processed

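Of 11 samples, the single-cell library and the 2 bulk Tfr RNA libraries were used, and the other 8 were not analysed here. The authors deposited UMI counts for each barcode in 1 matrix, whose header names Cell Ranger 3.1.0, while the submitters' processing notes list Cell Ranger 2.1.0 and Seurat 2 with builds mm9 and mm10. Per the labels the kit was the 3′ version 2 chemistry. The deposited bulk table holds counts per gene. The authors' normalized score, ratio, log2 and p-value columns of that table were not used. For its counting, the tool and strand setting were not given in the sources used here. Deposited lists of barcodes and genes were used only to name columns and rows.

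UMIs were summed per group of cells, scaled to CPM and compared on log2(CPM + 1), with exact conditional binomial intervals for ratios and Clopper-Pearson intervals for shares (95% confidence). A floor is 3 counts over the group. No test was made, since each group has 1 library. Doublets were scored with simulated pairs and not removed. Scripts were tested on simulated data. Named genes were the 12 highest and 12 lowest ratios per comparison, outside the genes that chose the groups, antigen receptor segments, predicted, ribosomal and mitochondrial genes, and up to 4 members of each list. Other genes were named after their values were seen. Levels without the cells that held most UMIs of a gene, and list counts by the group in which a gene reached the minimum, were added after seeing the data. Some genes of the lists are not reported here by name. The members and lists were chosen with earlier results of these data known. Python 3.11.15, NumPy 2.4.6, SciPy 1.17.1, pandas 2.3.3, scikit-learn 1.9.0, R 4.3.3, edgeR 4.0.16 and DESeq2 1.42.0 were used, the last 2 only to rescale the bulk counts.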

Additional observations from a re-analysis of the deposited data

How the results depend on the processing

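All comparisons rest on 1 library of unknown animal number, and ratios in groups of 9 to 50 cells can rest on 1 cell. The number of members, 85, became 48 under 5% mitochondrial UMIs, 170 with up to 3 Cst3 UMIs and 292 with no exclusion by Foxp3, Cd79a or Cst3. The alternatives on Cst3 up to 3, at least 20 UMIs in both groups, centring and the cell with Siglech were chosen after seeing the data. Counts of genes past 2-fold moved by more than 1.5 times as follows.

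For members against other CD4 T cells (125 higher, 160 lower), lower genes numbered 241 under 5% mitochondrial UMIs, 266 with at least 3 receptors, 265 without members with a Cd4 UMI and 77 with a pseudocount of 10 CPM. Higher and lower genes were 45 and 21 at 100 CPM and 876 and 1566 with no filter.

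For the NK arm against the CD8 arm (982 and 212), lower genes numbered 379 under 5% mitochondrial UMIs, 538 with at least 3 receptors, 368 without Cd4 cells, 124 with the pseudocount of 10 and 113 with Cst3 up to 3. Both counts were 223 and 24 at 100 CPM, 2484 and 2012 with no filter, 458 and 95 with at least 20 UMIs and 552 and 476 centred.

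For NK-arm cells without against with Cd3e (1066 and 1147), higher genes numbered 2010 under 5% mitochondrial UMIs, 1890 with at least 3 receptors and 1866 without Cd4 cells. Both counts were 283 and 151 at 100 CPM, 1945 and 3485 with no filter, 647 and 613 with Cst3 up to 3 and 90 and 120 with at least 20 UMIs.

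For the CD8 arm against the Ccl5, Gzmk or Eomes CD4 T cells (201 and 1012), higher genes numbered 317 under 5% mitochondrial UMIs and 106 with Cst3 up to 3. Both counts were 120 and 626 with the pseudocount of 10, 25 and 170 at 100 CPM, 1780 and 2834 with no filter, 99 and 468 with at least 20 UMIs and 405 and 494 centred.

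With at least 3 receptors required, 2 named ratios changed sign, Cd4 between the arms (log2 ratio -0.29) and Gzmb in the CD8 arm against those CD4 cells (0.74). That setting also moved the 4 cells of both arms, each with 2 receptors, into the CD8 arm. Stricter filters admit fewer genes or cells by construction, and looser ones more. For the other changes the cause was not tested. The 2 bulk marker genes past 2-fold stayed 2 with trimmed means and with medians of ratios. No paired analysis was possible because the groups compared are cells of 1 library or single bulk libraries that share no set of replicate numbers.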
